A study of Mus musculus with 54 samples.

Results

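The genes described here are Ppara and 6 genes of fatty acid oxidation, Ehhadh, Acaa2, Acadm, Cpt1a, Cpt2 and Hadha, followed through every dissociation, storage and nuclei protocol, strain and nephron segment of a mouse kidney study. They were chosen by name, by a rule that uses no measured value, although earlier results of these data were known at the time. They are 7 of the 33126 gene symbols listed in at least 1 of the 54 libraries. The study profiled kidney with 39 droplet (10x Chromium) libraries of cells or nuclei and 15 bulk RNA-seq libraries, in 18 groups of 3. The first set came from male C57BL/6J mice of 19 weeks, carrying AFAPIL.1DEL and taken from the same litter. Their kidneys were dissociated warm with a commercial enzyme mix or cold with a cold-active protease. Each suspension was profiled fresh, after 6 weeks of cryopreservation and after 3 months in methanol, and the cold and warm suspensions were also sequenced in bulk. The second set came from male Balb/c mice of 18 weeks and holds fresh cold-dissociated cells, nuclei (3x500g) and bulk RNA of intact kidney. The third came from female Balb/c mice of 15 weeks that had been breeders, and holds cold-dissociated cells fresh and after 2 weeks of cryopreservation, nuclei isolated by 3 protocols (3x500g, 1x2000g and sucrose), and bulk RNA of intact kidney and of the cold suspension. All nuclei came from flash-frozen whole kidneys, and those of 3x500g and 1x2000g were sorted. The sets were run at separate times, males with version 2 and females with version 3 of the droplet chemistry. Strain, the AFAPIL.1DEL genotype, sex, age, chemistry and batch thus cannot be told apart between sets.

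Fatty acids are the main fuel of the proximal tubule, the segment that reabsorbs most of the filtered solutes and is rich in mitochondria and peroxisomes. Long-chain acyl groups enter mitochondria through the carnitine shuttle and are shortened there by repeated rounds of dehydrogenation, hydration, a second dehydrogenation and thiolysis, while peroxisomes run a parallel pathway for very long and branched chains and for dicarboxylic acids. PPARα, encoded by Ppara, is a nuclear receptor that pairs with the retinoid X receptor, binds fatty acids and switches on genes of both pathways. Among the genes described, Cpt1a and Cpt2 encode the outer and inner carnitine palmitoyltransferases of the shuttle, with CPT1A as its regulated step. Acadm encodes the medium-chain acyl-CoA dehydrogenase, Hadha the α subunit of the mitochondrial trifunctional protein, and Acaa2 a mitochondrial thiolase of the last step. Ehhadh encodes the bifunctional enzyme of peroxisomal β-oxidation and is a classical PPARα target.

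The 7 genes lie on 7 chromosomes (GRCm38, GENCODE vM21). Ppara is at chr15:85734983-85802819 (plus strand), Cpt1a at chr19:3322334-3385733 (plus), Hadha at chr5:30118304-30155162 (minus), Ehhadh at chr16:21761287-21787807 (minus), Acadm at chr3:153922357-153944632 (minus) and Cpt2 at chr4:107903981-107923610 (minus), and Acaa2 is on a further chromosome. The annotated spans run from 19.6 kb for Cpt2 to 67.8 kb for Ppara. By RefSeq starts, Hadha begins 273 bases from Hadhb, which encodes the β subunit of the same protein and is read from the opposite strand. PPARα with its partner binds pairs of the hexamer AGGTCA set 1 base apart, and the RefSeq promoters (GRCm38.p6, 250 bases before each start, searched on both strands) were read for this motif. RefSeq and GENCODE starts can differ. The windows of Cpt1a and Ppara lie wholly inside the GENCODE gene spans given above, and those of Hadha and Cpt2 partly. The full pair (AGGTCA, any base, AGGTCA) was in none of the 6 promoters read and in 10 of 27025 promoters (0.0370%). The single hexamer was in 13.8% of all promoters and in 2 of the 6, those of Acadm and Cpt1a, which are shown for that reason. Both are printed 5′ to 3′ on the gene's strand, Acadm from chr3:153944644-153944893 (minus) and Cpt1a from chr19:3323051-3323300 (plus), and the capitals mark the hexamer, which in both reads as its complement TGACCT.
Acadm: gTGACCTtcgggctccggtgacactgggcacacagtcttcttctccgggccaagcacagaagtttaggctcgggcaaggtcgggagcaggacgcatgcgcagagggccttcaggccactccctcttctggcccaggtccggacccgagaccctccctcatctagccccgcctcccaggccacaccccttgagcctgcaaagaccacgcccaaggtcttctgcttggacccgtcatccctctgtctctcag
Cpt1a: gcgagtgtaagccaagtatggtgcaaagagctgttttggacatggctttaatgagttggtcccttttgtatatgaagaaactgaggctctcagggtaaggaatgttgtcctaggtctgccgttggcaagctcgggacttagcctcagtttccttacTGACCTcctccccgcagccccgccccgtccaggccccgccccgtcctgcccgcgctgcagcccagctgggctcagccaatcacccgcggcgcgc
The hexamer starts 249 bases before the RefSeq start of Acadm and 94 bases before that of Cpt1a. These matches describe letters in this window and say nothing about binding.

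Levels are given as CPM, the gene's count scaled to a common library total. In the droplet libraries the total is that of UMIs, the tagged molecules counted, over genes other than mitochondrially encoded ones, and in bulk that of reads counted over all genes. Log2 fold changes come from edgeR's quasi-likelihood test with TMM scaling and can differ from the ratio of CPM values where the make-up of the libraries differs. A gene was called where its adjusted p (Benjamini-Hochberg, over all genes tested) was below 0.05, and ± is the standard error of a fold change or, for a level, the SD. The 10x libraries held 983522 to 35170947 UMIs and the bulk libraries 2326998 to 31093949 counted reads. Of 175959 barcodes, 55.1% to 91.3% per library were placed in 1 of 10 gates, a gate being a set of cells with at least 2 of its marker genes detected and more of them than of any other gate's, and 0.557% to 7.67% tied between gates and were left out. Libraries shared at most 2.05% of the barcodes of the smaller one. The proximal tubule gate rests on 10 transporters and receptors such as Slc34a1, Lrp2 and Slc5a12, none of which is among the genes described. In sums over a library and in bulk RNA, fewer cells of a type and less RNA per cell cannot be told apart. The authors removed a gene from a library where fewer than 10 cells held it, so a gene listed at 0 over a whole library can have stood in up to 9 of its cells. No fold of a single gene is given against a group listed at 0 in this way, but list medians as deposited include such folds. Fits that hold such libraries were repeated with the 0s set to 9 counts, an alternative added after seeing the data. Replicates are the separate samples of a group, and p-values measure the spread among them. Whether the libraries of the compared groups overlap is given as a description of the values. Lack of overlap was common among all genes where its share is given. Elsewhere that share is not given, and lack of overlap is nowhere read as support for a gene.

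In bulk kidney the order of the genes per length turned with the length used. Per kb of the longest coding transcript Acadm or Acaa2 was first and Ppara last in each of the 5 bulk groups. Per kb of the union of all annotated exons Ehhadh was first in 4 groups and Acaa2 in the cold suspension of female Balb/c, and Hadha was last in 3 groups and Ppara in the 2 of female Balb/c. In cold C57BL/6J suspensions, for example, Ehhadh was at 210 and Acadm at 113 CPM per kb of exon union, and Hadha at 23.6 against 27.7 for Ppara. The values below are per kb of the longest coding transcript. Bulk read length differed between the sets, and libraries were made with either rRNA depletion or poly(A) isolation. Differences between sets cannot be told apart from these. Acadm was at 480 ± 23.9 CPM in intact female Balb/c kidney (SD, n = 3), Ehhadh at 276 ± 33.9 and Acaa2 at 258 ± 17.9, so that the levels of Ehhadh and Acaa2 lay within their spread of each other. Cpt1a followed at 115 ± 13.4, Hadha at 105 ± 2.36, Cpt2 at 64.4 ± 4.18 and Ppara at 22.0 ± 6.20. In intact male Balb/c kidney the order differed in the middle: Acadm was at 360 ± 69.1, Ehhadh at 230 ± 17.1, Cpt1a at 114 ± 13.6 and Acaa2 at only 71.9 ± 10.7 CPM per kb. In the cold suspension of female Balb/c kidney Acaa2 was first at 326 ± 2.86 CPM per kb, above Acadm at 258 ± 12.1. In cold C57BL/6J suspensions Acadm (216 ± 2.77), Ehhadh (210 ± 29.7) and Acaa2 (169 ± 30.1 CPM per kb) lay closer together, with Cpt1a at 142 ± 3.02, and in warm ones Cpt1a at 144 ± 1.16 and Acaa2 at 139 ± 20.4 did not differ beyond their spread.

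Averaged over the 9 fresh cold-dissociated cell libraries, 5 of the 7 genes had their highest gate mean in proximal tubule cells, while Cpt1a and Hadha did not. For Acaa2 this order did not hold in male Balb/c, where the thick ascending limb was higher in each library (261, 256 and 222 against 152, 172 and 186 CPM). Ehhadh averaged 227 ± 28.0 CPM in the proximal tubule gate (178 to 270, n = 9) and 39.9 ± 11.2 in the next gate, the thick ascending limb. Its lowest proximal tubule library lay above the highest of the thick ascending limb, at 58.0 CPM. The other 8 gates averaged 14.9 to 29.9 CPM for Ehhadh, with SDs of 7.48 to 30.4, and their order does not stand out from that spread. Acadm fell off more slowly down its order, from 552 ± 66.2 in the proximal tubule through 387 ± 47.8 in the thick ascending limb, 333 ± 113 in the distal convoluted tubule (n = 8) and 241 ± 34.2 in intercalated cells to 71.9 ± 28.8 in lymphocytes (n = 8). Cpt2 was at 102 ± 12.9 in the proximal tubule, 62.5 ± 10.9 in the thick ascending limb and 59.6 ± 7.40 CPM in intercalated cells, and the last 2 did not differ beyond their spread.

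**Figure D1:**
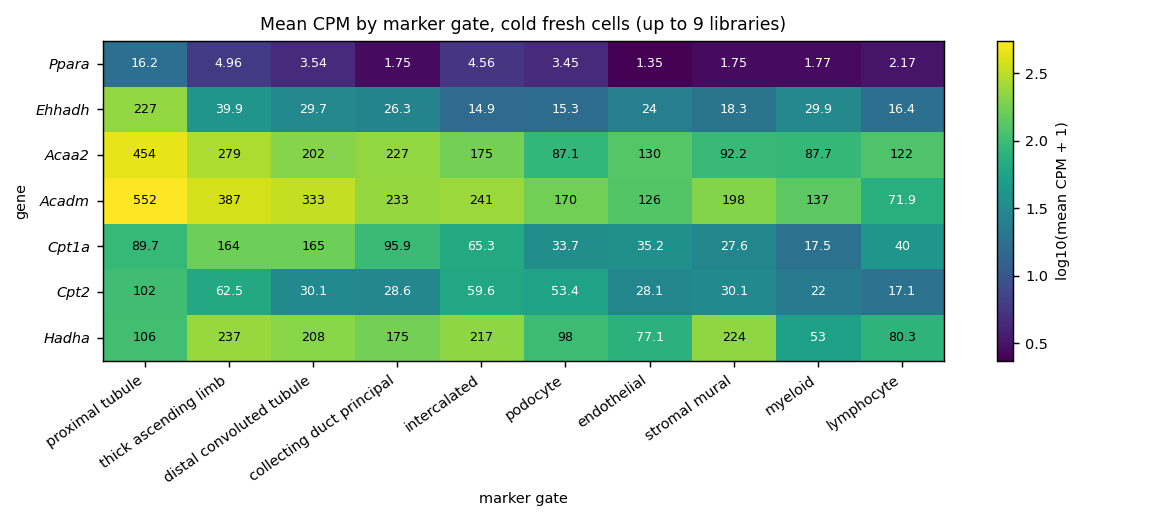
Mean level of the 7 genes (rows, CPM printed in each cell) in the 10 marker gates (columns) over up to 9 fresh cold-dissociated cell libraries, coloured by log10 of the mean CPM plus 1. Ehhadh stands out in the proximal tubule at 227 CPM against 39.9 in the thick ascending limb, whereas Hadha (237 CPM) and Cpt1a (164 CPM) are higher in the thick ascending limb than in the proximal tubule.

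Acaa2 averaged 454 CPM in the proximal tubule, but with an SD of 264 and a range of 152 to 817 over the 9 libraries, which the strains and sexes split as described below, and 279 ± 50.4 in the thick ascending limb. Hadha, by contrast, averaged 237 ± 86.6 CPM in the thick ascending limb, 224 ± 85.0 in stromal and mural cells (n = 6), 217 ± 84.4 in intercalated cells and 106 ± 67.5 in the proximal tubule, with overlapping ranges in all 4. Cpt1a was at 165 ± 95.1 in the distal convoluted tubule (n = 8) and 164 ± 31.8 in the thick ascending limb, against 95.9 ± 23.1 in principal cells of the collecting duct and 89.7 ± 13 CPM in the proximal tubule. Ppara was sparse: 16.2 ± 15.3 CPM in the proximal tubule (0 to 43.0) and 1.35 to 4.96 CPM on average in the other 9 gates, each of which had at least 1 library at 0. Of the 9 libraries, 2 of male Balb/c list Ppara at 0 over all their cells.

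Over the 10 gate means, Ppara was most like Ehhadh (Pearson r = 0.85) and Cpt2 (r = 0.84) among the other 6 genes, and Acaa2 most like Cpt1a (r = 0.86). The lowest correlations were those of Hadha with Ehhadh (r = -0.11) and with Ppara (r = 0.16). These coefficients are descriptions over 10 points that share libraries. Among 11491 genes, the profile of Ehhadh over the gates was most like those of Ak4 (r = 0.98), Gm4131 (r = 0.98) and C4b (r = 0.97), and that of Acadm like those of Cisd1, Pebp1 and Ghr (r = 0.97 each).

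The proximal tubule was then divided by markers of its early (S1) and late (S3) segments, and Ehhadh and Acadm were higher in S3 and Acaa2 higher in S1. Cells were placed by 6 S1 markers, such as Slc5a2 and Slc5a12, and 6 S3 markers, such as Slc7a13, and the segments were compared within libraries. A cell needed any marker of its segment and none of the other. A single marker placed 330 of 510 S3 cells in C57BL/6J, 358 of 592 in male Balb/c and 134 of 184 in female Balb/c. In C57BL/6J cells Ehhadh was at 357, 323 and 509 CPM in S3 and 88.9, 101 and 152 CPM in S1, a log2 difference of 1.76 ± 0.16 (edgeR adjusted p = 3.4e-11). Its S3 libraries all lay above its S1 libraries there, and again in male Balb/c cells (307, 232 and 467 against 107, 93.2 and 153 CPM, 1.46 ± 0.21) and female Balb/c cells (397, 499 and 367 against 153, 205 and 173 CPM, 1.17 ± 0.16). Of the genes described, 3 of 6 tested were called in C57BL/6J cells, where 12.9% of all genes were called, 3 of 5 in male Balb/c cells (20.1%) and 5 of 7 in female Balb/c cells (6.49%).
Acadm was called higher in S3 in each of these 3 sets. It was at 842, 839 and 703 against 390, 382 and 396 CPM in C57BL/6J (1.00 ± 0.12), 781, 696 and 748 against 363, 382 and 326 CPM in male Balb/c (1.01 ± 0.14). In female Balb/c it was at 1803, 1310 and 1731 against 532, 486 and 582 CPM (1.51 ± 0.11). The libraries of Acadm did not overlap between segments in any set, which is a description given without the share of all genes. The thiolase gene Acaa2 went the other way, at 191, 212 and 285 CPM in S3 against 691, 474 and 592 in S1 of C57BL/6J (-1.35 ± 0.15), and 27.9, 33.8 and 62.3 against 262, 292 and 233 CPM in male Balb/c (-2.80 ± 0.29). In female Balb/c cells the gap was smaller, 565, 651 and 566 against 845, 798 and 818 CPM (-0.53 ± 0.13), and was not called without replicate 3 (-0.48, edgeR adjusted p = 0.0780). The difference between the female and the male Balb/c gap was itself called (2.35 ± 0.31, edgeR adjusted p = 1.2e-05, 1 of 6 tested against 2.62% of all genes), while that between C57BL/6J and male Balb/c was not (1.44 ± 0.37, edgeR adjusted p = 0.075).
In female Balb/c cells Hadha was also higher in S3, at 276, 330 and 388 against 178, 175 and 182 CPM (0.82 ± 0.17). In C57BL/6J cells Hadha stood at -0.34 without a call, and in male Balb/c cells it was too low to test. The values of Cpt2 that follow are again from female Balb/c cells. Cpt2 was at 168, 152 and 178 against 78.6, 82.5 and 93.2 CPM (0.89 ± 0.25, edgeR adjusted p = 0.0082). Its call was lost without replicate 1 (0.86, adjusted p = 0.0548), replicate 2 (0.97, adjusted p = 0.0797) or replicate 3 (0.92, adjusted p = 0.0610). These S3 gates held 52 to 77 cells per library in females, against 119 to 220 in C57BL/6J and 166 to 218 in male Balb/c. As shares of barcodes, S3 took 0.971% to 1.25% in female and 6.09% to 6.73% in male Balb/c cells. S1 took 21.9% to 24.3% and 9.20% to 11.4%. Whether the gates hold like cells in these sets was not tested. Ppara was too low to test in C57BL/6J and male Balb/c cells.

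The nuclei repeated the split of Acadm and Acaa2 with another kind of RNA, counted over introns and exons. In male Balb/c nuclei Acadm was at 178, 217 and 350 CPM in S3 and 88.7, 77.9 and 65.2 in S1 (1.65 ± 0.17), and Acaa2 at 13.9, 10.9 and 6.99 against 77.1, 75.1 and 122 CPM (-3.15 ± 0.27). Calls were made for 5 of 7 genes, against 23.8% of all genes. DESeq2 called 2 of the 7, and leaving out 1 library gave 3 to 6. In female nuclei (3x500g), where S3 held 20 to 36 nuclei per library, Acadm was at 966, 385 and 337 against 74.5, 84.4 and 90.8 CPM (2.61 ± 0.21). Acaa2 was at 13.3, 0 and 23.3 against 83.2, 82.6 and 113 CPM (-3.23 ± 0.51), and 4 of 7 genes were called, against 17.1% of all genes. Ehhadh was uneven there: its S3 libraries were at 733, 343 and 81.4 CPM and its S1 libraries at 56.3, 86.9 and 165 (1.99 ± 0.25, called), so that the groups overlapped, and in male nuclei it was not called (0.38 ± 0.15, edgeR adjusted p = 0.062). Ppara was lower in S3 nuclei of females, at 207, 235 and 198 against 582, 1175 and 1243 CPM (-2.22 ± 0.21). In male nuclei it was at 357, 447 and 367 against 453, 528 and 520 CPM (-0.38 ± 0.10), a difference lost without replicate 3 (-0.27, edgeR adjusted p = 0.145). Male nuclei also gave calls for Cpt1a (-0.53 ± 0.15, lost without replicate 2 at -0.36, edgeR adjusted p = 0.174) and Cpt2 (0.77 ± 0.24, lost without replicate 3 at 0.48, edgeR adjusted p = 0.324).

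**Figure D2:**
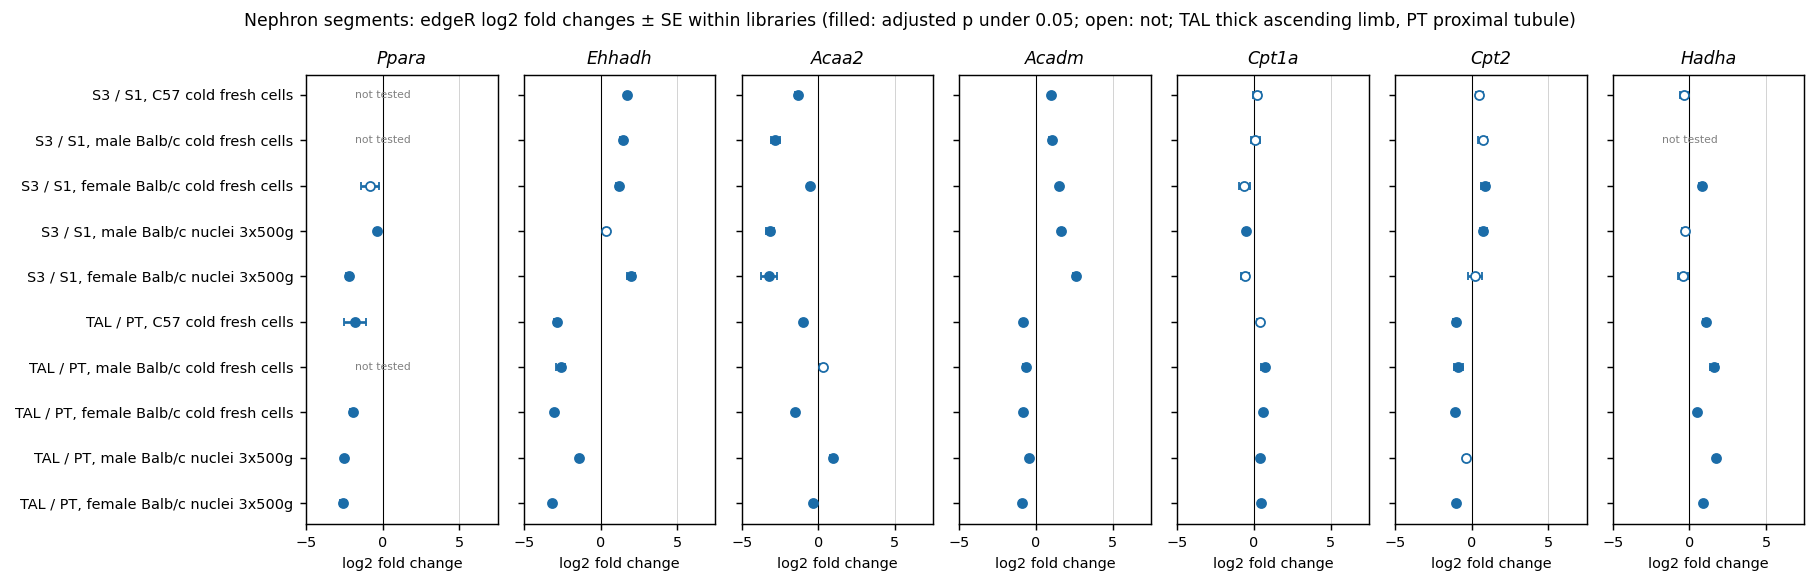
Log2 fold change ± SE of the 7 genes between S3 and S1 and between thick ascending limb and proximal tubule gates, within libraries, in 5 sample sets (3 of fresh cold cells, 2 of 3x500g nuclei); filled points had an adjusted p below 0.05. Acadm lies above 0 and Acaa2 below 0 in S3 over S1 in all 5 sets, from 1.00 to 2.61 and from -0.53 to -3.23.

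The wider pathway is given beside the share of all genes, of which 6.89% were called higher and 6.06% lower in S3 of C57BL/6J cells, 10% and 10.1% in male Balb/c and 2.52% and 3.97% in female Balb/c cells. Of the peroxisomal list, 12 of 23 genes tested were higher in S3 and 1 lower in C57BL/6J cells, with a list median of 0.52 against 0.00 over all genes, and of the mitochondrial list 5 of 19 were higher and 1 lower (median 0.31). The mitochondrial counts were 3 higher and 1 lower of 15 in male Balb/c and 4 higher and 0 lower of 19 in female Balb/c cells. In male Balb/c cells the peroxisomal count was 8 higher and 1 lower of 16 (median 0.51 against -0.01 over all genes), and in female Balb/c cells 7 higher and 1 lower of 23 (median 0.18 against -0.22). Nudt19, a peroxisomal CoA hydrolase, was among those higher (2.41 ± 0.13, 2.19 ± 0.14 and 1.81 ± 0.17 in the 3 cell sets), as was Slc27a2, a very long-chain acyl-CoA synthetase (1.63 ± 0.11 in C57BL/6J). Of the PPARα targets 7 were higher and 1 lower of 14 in C57BL/6J (median 0.85), 2 and 1 of 5 in male Balb/c and 5 and 1 of 18 in female Balb/c cells (median 0.87), and of the regulators 0 were higher in any set and 0, 2 and 1 lower of 12, 9 and 19. Among the targets, the fatty acid transporter Cd36 was higher in S3 (3.33 ± 0.17, 2.27 ± 0.13 and 5.34 ± 0.83) and the fatty acid binding protein Fabp3 lower (-1.90 ± 0.24, -1.62 ± 0.27 and -2.29 ± 0.57). Acsl1, which activates long-chain fatty acids, was lower in C57BL/6J (-1.78 ± 0.26) and male Balb/c cells (-1.37 ± 0.32).

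Compared with the proximal tubule, cells of the thick ascending limb, the segment that reabsorbs salt through Slc12a1, held more Hadha and less Ehhadh. Hadha was at 205, 186 and 158 CPM in the thick ascending limb of C57BL/6J cells and 69.5, 67.6 and 73.8 in the proximal tubule (1.07 ± 0.17, edgeR adjusted p = 4.4e-08), with no overlap. The same held at 136, 200 and 203 against 60.7, 50.9 and 44.4 CPM in male Balb/c (1.58 ± 0.25) and at 337, 370 and 337 against 201, 187 and 195 CPM in female Balb/c (0.52 ± 0.07). Of the 7 genes, 6 were called in C57BL/6J (42.6% of all genes were called), 5 of 6 tested in male Balb/c (43.4%) and 7 in female Balb/c (61.4%), so that a call by itself was common in this comparison. In male Balb/c DESeq2 called 2, and leaving out 1 library gave 2 to 5.
Ehhadh was at 36.4, 40.6 and 36.0 CPM in the thick ascending limb against 226, 192 and 244 in the proximal tubule of C57BL/6J (-2.83 ± 0.21), with -2.59 ± 0.29 in male and -3.01 ± 0.10 in female Balb/c cells. Acadm was lower by less, with -0.84 ± 0.13, -0.69 ± 0.16 and -0.88 ± 0.07 in the same order, and Cpt2 likewise, with -1.03 ± 0.21, -0.87 ± 0.30 and -1.06 ± 0.11. In male Balb/c cells the Acadm call was lost without replicate 2 (-0.51, edgeR adjusted p = 0.0599) and the Cpt2 call without replicate 1 (-0.82, adjusted p = 0.0704) or replicate 2 (-0.84, adjusted p = 0.111). Cpt1a was higher in the thick ascending limb of male Balb/c cells (0.70 ± 0.22, lost without replicate 2 at 0.71, edgeR adjusted p = 0.0664) and female Balb/c cells (0.61 ± 0.08). In C57BL/6J it stood at 182, 135 and 104 against 76.9, 94.0 and 81.0 CPM without a call (0.40 ± 0.18, edgeR adjusted p = 0.059).
Ppara was lower in the thick ascending limb of female Balb/c cells, at 11.6, 10.8 and 11.6 against 43.0, 35.4 and 26.0 CPM (-1.96 ± 0.17). In C57BL/6J it was at 0, 3.38 and 7.19 against 14, 13 and 6.39 CPM (-1.82 ± 0.74, edgeR adjusted p = 0.040, lost without replicate 1 at -1.18, adjusted p = 0.265). The thick ascending limb values of Ppara there rest on few UMIs. Acaa2 was lower in C57BL/6J at 296, 200 and 284 against 427, 357 and 481 CPM (-1.01 ± 0.14) and in female Balb/c at 356, 337 and 301 against 817, 755 and 741 CPM (-1.54 ± 0.07). In male Balb/c cells it was at 261, 256 and 222 CPM in the thick ascending limb and 152, 172 and 186 in the proximal tubule, without a call (0.32 ± 0.19, edgeR adjusted p = 0.18). Both differences from the male Balb/c gap were called, -1.25 ± 0.24 for C57BL/6J (edgeR adjusted p = 0.0022, 1 of 6 tested against 0.599% of all genes) and -1.69 ± 0.19 for female Balb/c (edgeR adjusted p = 5e-06, 1 of 7 against 1.97%). Transcripts known to leak from the proximal tubule, such as Kap and Miox, stood in the thick ascending limb at 6.34% to 19.97% of their proximal tubule level in these 9 libraries, and their part in the differences was not tested.
In nuclei Hadha was again higher in the thick ascending limb, at 173, 146 and 193 against 42.6, 45.7 and 53.6 CPM in males (1.73 ± 0.10, 6 of 7 genes called against 49.3% of all genes). In females it was at 141, 184 and 196 against 71.4, 87.1 and 95.6 CPM (0.91 ± 0.07, 7 of 7 called against 60.9%). Ppara (-2.50 ± 0.11 and -2.62 ± 0.19) and Ehhadh (-1.38 ± 0.14 and -3.15 ± 0.11) were lower there in both. Acaa2 was higher in the thick ascending limb of each male library, at 81.6, 34.2 and 73.7 against 34.3, 23.7 and 33.5 CPM (0.93 ± 0.15), and lower in females (-0.33 ± 0.10), a call lost without replicate 1 (-0.18, edgeR adjusted p = 0.0945) or replicate 3 (-0.33, adjusted p = 0.107). The leaked transcripts stood at 37.1% to 63.0% of their proximal tubule level in the male and 7.82% to 10.9% in the female nuclei.
Around these genes, most of the peroxisomal list was lower in the thick ascending limb. Of all genes, 22.9%, 23.5% and 30.8% were called lower there in C57BL/6J, male and female Balb/c cells and 19.7%, 20% and 30.6% higher. The lower peroxisomal genes were 22 of 23 genes tested in C57BL/6J (median -1.96 against 0.00 over all genes), 15 of 20 in male Balb/c and 22 of 24 in female Balb/c cells. Slc27a2 stood at -4.70 ± 0.17, -4.08 ± 0.21 and -4.66 ± 0.24. The mitochondrial list was mixed, with 4 higher and 11 lower of 20, 5 and 5 of 19, and 3 and 15 of 20. Its highest included Acacb, the acetyl-CoA carboxylase whose product inhibits CPT1 (4.76 ± 0.24 in female Balb/c), Acadsb (2.49 ± 0.16, 2.32 ± 0.22 and 1.92 ± 0.08) and Hadhb, the partner of Hadha (1.34 ± 0.13, 1.18 ± 0.19 and 0.39 ± 0.07). Of the PPARα targets 13 were lower and 2 higher of 17 in C57BL/6J (median -2.72), 5 and 2 of 8 in male Balb/c and 14 and 4 of 18 in female Balb/c cells (median -3.33). The regulators were divided, with 6 lower and 5 higher of 19, 3 and 3 of 13, and 7 and 7 of 19. Among them, the coactivator gene Ppargc1a was higher (2.12 ± 0.15, 1.98 ± 0.19 and 1.77 ± 0.09). Hnf4a, a factor of proximal tubule identity (-3.57 ± 0.24, -3.65 ± 0.31 and -4.02 ± 0.16), and Rxra, the partner of PPARα (-2.18 ± 0.38, -1.21 ± 0.48 and -1.87 ± 0.14), were lower.

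Warm and cold dissociation were compared as whole protocols, in which enzyme, temperature and handling differ together and cannot be told apart. In bulk RNA of C57BL/6J suspensions, 0 of 7 genes were called by edgeR (1 at an unadjusted p under 0.05, 0 by DESeq2; 8.68% of all genes were called). Ppara was at 104, 113 and 82.9 CPM warm and 121, 101 and 96.9 cold (-0.11 ± 0.11, edgeR adjusted p = 0.61), and Cpt1a at 620, 628 and 619 against 623, 619 and 599 CPM (-0.01 ± 0.06, edgeR adjusted p = 0.97). Of the PPARα targets around them, Pdk4, the kinase that shuts down pyruvate oxidation, rose (149 ± 52.8 against 41.2 ± 11.2 CPM, 1.82 ± 0.23), as did Angptl4, a secreted inhibitor of lipoprotein lipase (58.7 ± 32.9 against 22.2 ± 5.02 CPM, 1.37 ± 0.35), the only 2 of 17 tested. Of the mitochondrial list 1 of 21 rose and of the peroxisomal list 1 of 24 fell. Of all genes 5.42% were called higher and 3.26% lower. Of 20 regulators tested 4 rose, Sirt1, Ppargc1b, Esrrg and Ppargc1a among them by 0.32 to 0.48. The summed markers of the thick ascending limb were at 9317 to 10866 CPM warm and 7790 to 7807 cold. Those of principal cells were at 757 to 976 against 245 to 481, and those of the proximal tubule at 18528 to 20623 against 21951 to 23237. Their part in the bulk values was not tested.
In the summed droplet libraries Ppara and Acadm were higher after warm dissociation, 2 of 7 genes against 15.2% of all genes. Ppara was at 18.6, 15.5 and 17.0 CPM warm and 9.68, 9.72 and 5.28 cold (1.20 ± 0.21, edgeR adjusted p = 0.0073), without overlap. Acadm was at 473, 489 and 442 against 430, 393 and 367 CPM (0.39 ± 0.09, edgeR adjusted p = 0.024). This call was lost without cold replicate 2 (0.36, adjusted p = 0.113) or 3 (0.33, adjusted p = 0.095) or warm replicate 1 (0.40, adjusted p = 0.0774), 2 (0.32, adjusted p = 0.0705) or 3 (0.44, adjusted p = 0.0542). The proximal tubule gate took 47.4% to 53.3% of barcodes warm and 40.2% to 44.0% cold, and its part in these sums was not tested. Of all genes 8.27% were called higher and 6.9% lower. Of the mitochondrial and peroxisomal lists, 9 of 20 and 9 of 24 genes tested rose (medians 0.39 and 0.39 against -0.02 over all genes), Hadh (0.78 ± 0.12), Mlycd (0.77 ± 0.11) and Amacr (0.70 ± 0.15) among them, and 0 fell. Of the PPARα targets 6 of 18 rose and 0 fell, and of the regulators 1 rose and 1 fell of 20.
Within the proximal tubule gate Ppara rose and Cpt1a fell, again 2 of 7 genes, against 9.13% of all genes. Ppara was at 25.1, 20.5 and 21.3 CPM warm and 14, 13 and 6.39 cold (1.06 ± 0.25, edgeR adjusted p = 0.026), resting on 284 and 84 UMIs. Cpt1a was at 47.1, 58.1 and 55.7 against 76.9, 94.0 and 81.0 CPM (-0.56 ± 0.15, edgeR adjusted p = 0.035). Both calls were fragile, and neither was made with barcodes that carry no marker of another gate. That of Ppara was lost without cold replicate 2 (1.20, adjusted p = 0.0862) or 3 (0.77, adjusted p = 0.0809) or warm replicate 1 (1.00, adjusted p = 0.0953) or 3 (1.09, adjusted p = 0.0717). That of Cpt1a was lost without cold replicate 2 (-0.48, adjusted p = 0.151) or 3 (-0.61, adjusted p = 0.0863) or warm replicate 1 (-0.47, adjusted p = 0.149) or 3 (-0.58, adjusted p = 0.104). Ehhadh, at 177, 178 and 154 CPM warm and 226, 192 and 244 cold, was not called (-0.30 ± 0.13, edgeR adjusted p = 0.14). Acaa2, Acadm, Cpt2 and Hadha lay between 0.03 and 0.17 on the log2 scale, with overlapping libraries. Within the gate, S3 took 6.20% to 9.98% of all barcodes warm and 3.16% to 5.39% cold. S1 took 18.1% to 20.3% against 16.5% to 21.1%, and the part of this make-up was not tested.
Pdk4 (3.23 ± 0.55) and Angptl4 (1.94 ± 0.42) rose in this gate too, and so did the carnitine-acylcarnitine carrier Slc25a20 (0.99 ± 0.20), Mlycd (0.73 ± 0.13) and Hadh (0.63 ± 0.13), while Acsl1 fell by 0.70 ± 0.20. Of all genes 4% were called higher and 5.13% lower in the gate. The mitochondrial list had 7 genes higher and 2 lower of 19, the peroxisomal list 3 and 1 of 23, the targets 3 and 0 of 18, and the regulators 1 and 4 of 19, with Ncoa2 (-0.94), Prkaa2 (-0.81) and Rxra (-0.66) among those lower. In other gates edgeR called 0 of 6 genes tested in the thick ascending limb (2.14% of all genes), 0 of 4 in principal cells (2.12%), 0 of 3 in intercalated cells (0.54%), 0 of 3 in endothelium (1.56%), 0 of 2 in myeloid cells (4.15%) and 0 of 1 in lymphocytes (5.23%). Each had 0 at an unadjusted p under 0.05, and DESeq2 was not run in these gates.

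**Figure D3:**
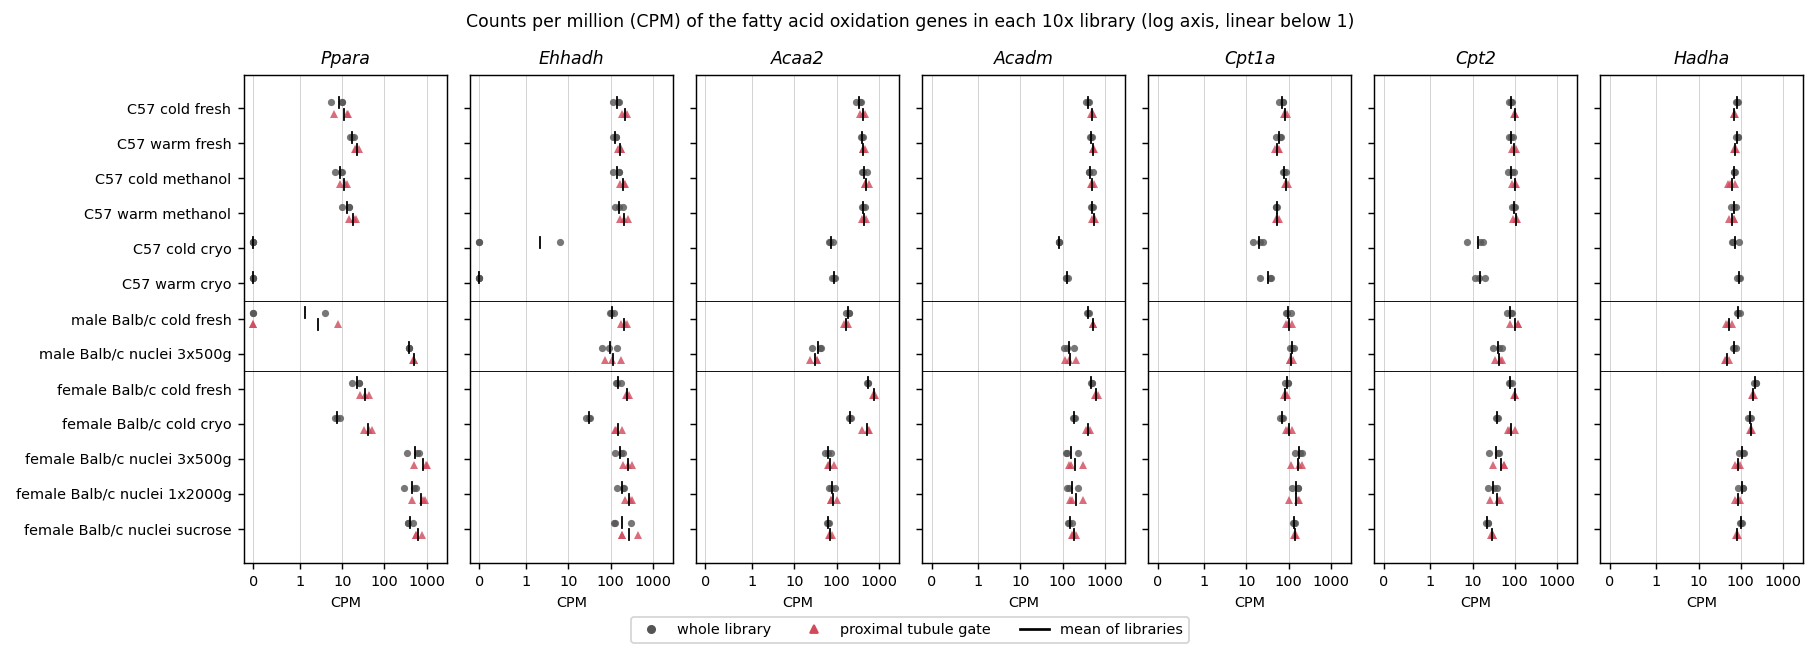
Level of each gene (CPM, log axis, linear below 1) in every droplet library of the 13 groups, as the whole library (grey circles) and as the proximal tubule gate where it held at least 10 cells (red triangles), with black bars at the mean of the whole libraries. Ppara lies between 0 and 24.9 CPM in whole cell libraries and between 294 and 656 CPM in nuclei, and the cryopreserved C57BL/6J libraries have no proximal tubule point.

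Intact kidney was compared with cold suspension, both from female Balb/c and in bulk. Dissociation, handling and cell recovery differ together and cannot be told apart. Ehhadh, Acadm and Cpt2 were higher and Acaa2 lower in intact kidney, 4 of 7 genes against 20% of all genes. Acadm was at 1006, 1014 and 926 CPM intact and 533, 550 and 501 in suspension (0.91 ± 0.07, edgeR adjusted p = 1.8e-05), and Ehhadh at 800, 934 and 736 against 457, 555 and 429 CPM (0.79 ± 0.11, edgeR adjusted p = 0.00089). Neither overlapped.
Acaa2 was at 415, 396 and 362 CPM intact and 496, 498 and 490 in suspension (-0.33 ± 0.07, edgeR adjusted p = 0.0079). Cpt2 was at 159, 158 and 141 against 113, 136 and 115 CPM (0.35 ± 0.08, edgeR adjusted p = 0.014), a call lost without suspension replicate 1 (0.30, adjusted p = 0.062), intact replicate 1 (0.31, adjusted p = 0.0505) or intact replicate 2 (0.33, adjusted p = 0.0582). Ppara (93.1, 80.8 and 51.9 against 78.4, 75.1 and 50.5 CPM), Cpt1a (-0.04 ± 0.11) and Hadha (0.04 ± 0.06) overlapped and were not called.
Cd36 was higher in intact kidney by 2.44 ± 0.08 (157 ± 4.80 against 29.1 ± 2.94 CPM), and so were Acox2 (0.97 ± 0.09), Nudt19 (0.94 ± 0.06), Acot1 (0.93 ± 0.12) and Crot (0.70 ± 0.09). In all, 4 of 22 mitochondrial, 6 of 25 peroxisomal, 4 of 20 target and 4 of 21 regulator genes were higher, where 12.1% of all genes were called higher and 7.91% lower. The list medians were 0.10, 0.08, 0.29 and 0.04 against 0.00 over all genes, and nothing about the lists is read from these counts. Acaa1a, a peroxisomal thiolase, was the 1 lower (-0.29 ± 0.06). The summed proximal tubule markers were at 11108 to 13543 CPM intact and 10797 to 11357 in suspension, and 8 adipocyte markers at 1.24 to 18.9 against 0.211 to 0.455 CPM. The part of either in the differences was not tested.

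Most of these transcripts were lower in the library sums after cryopreservation. In cold-dissociated C57BL/6J cells 6 of 7 genes were called lower, all but Hadha (29.7% of all genes were called lower and 50.5% in either direction). Ppara was listed at 0 in the 3 cryopreserved libraries against 9.68, 9.72 and 5.28 CPM fresh. With those 0s at 9 counts its call was lost (-0.89 ± 0.40, edgeR adjusted p = 0.097), and 5 of 7 genes were called. Ehhadh was listed at 0, 6.43 and 0 CPM against 154, 117 and 156 fresh (-5.91 ± 0.56, and -4.76 ± 0.21 with the 0s at 9 counts).
Acadm was at 82.7, 83.1 and 81.2 against 430, 393 and 367 CPM (-2.47 ± 0.11), Acaa2 at 82.7, 66.4 and 68.6 against 361, 286 and 380 (-2.45 ± 0.16), and Cpt2 at 17.6, 15.4 and 7.55 against 83.3, 74.8 and 88.1 (-2.79 ± 0.22). Of these 4, Cpt1a fell least, at 24.1, 21.4 and 14.5 against 74.4, 73.4 and 59.2 CPM (-1.98 ± 0.17). Hadha was at 65.8, 90.4 and 62.3 against 87.1, 80.1 and 77.1 CPM, with overlap and without a call (-0.35 ± 0.16, edgeR adjusted p = 0.10).
In warm-dissociated cells the same 6 genes were called lower (34.2% of all genes were called lower and 59.7% in either direction). Ppara and Ehhadh were listed at 0 in all 3 stored libraries, against 16.6 and 130 CPM over the fresh ones together. With those 0s at 9 counts both stayed called lower, Ppara at -1.82 ± 0.20 (edgeR adjusted p = 0.00019) and Ehhadh at -4.73 ± 0.17 (adjusted p = 2e-06). Acaa2 (-2.57 ± 0.09), Acadm (-2.25 ± 0.09), Cpt2 (-2.83 ± 0.19) and Cpt1a (-1.22 ± 0.22) fell as well, and Hadha was at 79.7, 90.2 and 96.4 against 78.3, 84.0 and 85.5 CPM (-0.24 ± 0.10, edgeR adjusted p = 0.079). The effect of storage was not called as different between warm and cold cells for the 6 genes other than Ppara (edgeR's test of the difference, 0 of 6 called, 2 at an unadjusted p under 0.05, against 6.01% of all genes). Those 2 were Cpt1a and Ehhadh, and the value of Ehhadh rests on libraries listed at 0 (-0.0079 ± 0.35 with the 0s at 9 counts). Ppara, at 0 in both stored groups, could not be tested as deposited, and DESeq2 was not run for this difference.
The proximal tubule gate itself held only 4 and 2 cells in the cold and warm cryopreserved C57BL/6J libraries together, against 4896 and 5725 fresh, and its 10 markers summed to 13 to 41.5 CPM against 3759 to 5238. No comparison within that gate could be made. Of the surrounding lists, genes called lower were 18 of 20 mitochondrial and 23 of 24 peroxisomal genes in cold and 17 of 20 and 23 of 24 in warm cells, with medians of -1.75, -2.42, -1.74 and -2.55 against -0.16 over all genes in both. With genes listed at 0 put at 9 counts these counts did not move, and the peroxisomal medians were -2.14 and -2.34. Of 17 PPARα targets tested 14 were lower in cold and 13 in warm cells (medians -3.10 and -7.44), which became 12 of 18 in both with the 0s at 9 counts (medians of the 17 at -2.14 and -2.65). Of 20 regulators tested 9 were lower and 0 higher in cold cells (median -0.54), and 6 lower and 3 higher in warm cells (median -0.00022). Acacb rose in warm cells (1.48 ± 0.32), and Hnf4a was listed at 0 in the cold and warm stored libraries, against 151 and 126 CPM over the fresh ones, and was called lower with the 0s at 9 counts as well (-5.12 ± 0.18 and -4.74 ± 0.15).
Outside the proximal tubule fewer of these genes could be tested. In the thick ascending limb edgeR called 0 of 4 genes tested in cold cells (2 at an unadjusted p under 0.05; 4.98% of all genes), and in warm cells 1 of 5 (10.4%), Acaa2 at 154, 124 and 123 CPM cryopreserved and 226, 254 and 269 fresh (-0.76 ± 0.19). In myeloid cells Acaa2 and Acadm fell in cold (-1.63 and -1.09, 2 of 3 genes against 11.4%) and in warm preparations (-1.62 and -1.07, 2 of 2 against 15.4%). In principal cells Acaa2 fell in warm preparations (119, 116 and 84.4 against 236, 208 and 270 CPM, -0.99, 1 of 4 against 8.62%) and edgeR called 0 of 3 genes in cold ones (2 at an unadjusted p under 0.05; 5.93%). In cold preparations edgeR called 0 of 2 genes in podocytes (0 at an unadjusted p under 0.05; 2.01%) and 0 of 3 in endothelium (1 at an unadjusted p under 0.05; 5.62%). In lymphocytes of cold preparations Acaa2 fell by 1.92 on the log2 scale (1 of 2 against 8.95%). Over whole libraries the leaked proximal tubule transcripts summed to 388 to 652 CPM in cold stored preparations, against 21145 to 29044 fresh. In warm preparations they summed to 524 to 890 against 36680 to 42833 CPM. These sums include the RNA of proximal tubule cells themselves, so they do not measure leakage into these gates. The part of leakage in the differences in these gates was not tested.

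In the female Balb/c set enough proximal tubule cells remained after freezing for a comparison inside that gate. The stored gate held 75 to 132 cells per library, 318 in all, against 6557 fresh. Spin speeds in freezing and thawing were also changed for this set. Their part and those of strain, sex, chemistry and storage time cannot be told apart. In the sums all 7 genes fell (29.9% of all genes were called lower and 57.8% in either direction), from -0.85 ± 0.10 for Cpt1a and -0.88 ± 0.10 for Hadha to -2.76 ± 0.17 for Ehhadh, which was at 32.5, 31.2 and 26.6 CPM against 133, 183 and 144 fresh. Ppara was at 8.83, 7.34 and 6.81 against 25.1, 24.6 and 17.2 CPM (-1.96 ± 0.21). No gene of the 7 overlapped between stored and fresh sums, as for 74.8% of all genes. The summed markers of the proximal tubule were at 607 to 1251 against 3620 to 4485 CPM.
Inside the gate 5 of 7 genes fell (13.4% of all genes were called lower and 24.5% in either direction). Ehhadh was at 135, 127 and 183 CPM stored and 233, 273 and 242 fresh (-1.08 ± 0.14, edgeR adjusted p = 6.7e-05), Acadm at 452, 353 and 399 against 632, 601 and 680 (-0.95 ± 0.12). Acaa2 was at 406, 549 and 603 against 824, 761 and 747 (-0.88 ± 0.13). Cpt2 was at 76.6, 68.8 and 99.8 against 99.4, 102 and 103 CPM (-0.64 ± 0.15) and Hadha at 181, 179 and 162 against 203, 189 and 197 (-0.44 ± 0.11, lost without fresh replicate 1 at -0.34, edgeR adjusted p = 0.0675). Ppara, at 43.4, 32.3 and 49.9 against 43.3, 35.7 and 26.3 CPM (-0.09 ± 0.30, 44 stored UMIs), and Cpt1a, at 99.5, 86.1 and 121 against 85.5, 90.9 and 77.3 (-0.06 ± 0.15), were not called. On library size scaling alone 3 of 7 genes were called.
Of the lists in this gate, 12 of 19 mitochondrial genes fell (median -0.58 against 0.05 over all genes), 14 of 23 peroxisomal genes fell (median -0.90). Of 19 regulators 2 rose and 1 fell, and of 11 PPARα targets tested 1 rose and 4 fell, among them Cyp4a10, a fatty acid ω-hydroxylase (-1.81 ± 0.19). The lipid droplet gene Plin2 rose (0.65 ± 0.19). In the thick ascending limb edgeR called 0 of 7 genes (3 at an unadjusted p under 0.05; 4.6% of all genes), and in principal cells 4 of 6 (13.4%). There Cpt1a was at 62.0, 70.2 and 56.7 CPM stored against 106, 125 and 113 fresh (-0.97), with Ehhadh (-1.29), Hadha (-0.68) and Acadm (-0.50). Over whole libraries the leaked proximal tubule transcripts summed to 1836 to 2695 CPM stored and 14021 to 15808 fresh. These sums include the RNA of proximal tubule cells themselves and do not measure leakage into other gates, whose part was not tested.

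After methanol fixation 2 of the 7 genes were called in cold sums, and 0 in warm sums and in the proximal tubule gate. The difference between the warm and cold effects in sums was called for 0 of 7 genes by edgeR's test of the difference (1 at an unadjusted p under 0.05) and for 0% of all 12029 genes tested, and DESeq2 was not run for it. No value with the replicate block is given for this difference. In cold-dissociated C57BL/6J sums Acaa2 was at 427, 403 and 524 CPM fixed and 361, 286 and 380 fresh (0.57 ± 0.16, edgeR adjusted p = 0.026), without overlap. Acadm was at 516, 435 and 422 against 430, 393 and 367 (0.37 ± 0.10, edgeR adjusted p = 0.023), with overlap, while 28.2% of all genes were called. The Acaa2 call was lost without fresh replicate 1 (0.61, adjusted p = 0.0519) or 2 (0.45, adjusted p = 0.0981) or fixed replicate 3 (0.40, adjusted p = 0.0869). That of Acadm was lost without fresh replicate 2 (0.35, adjusted p = 0.0938) or 3 (0.34, adjusted p = 0.0836) or fixed replicate 1 (0.31, adjusted p = 0.0804). Fixed samples are aliquots of the fresh suspensions, and with the replicate block Cpt1a was called as well (0.38, edgeR adjusted p = 0.0499), while on library size scaling alone 0 of 7 were. That scaling moved the median of all genes from -0.07 to -0.25.
In warm sums edgeR called 0 of 7 genes (1 at an unadjusted p under 0.05, 3 by DESeq2; 17.3% of all genes), and with the replicate block Ehhadh alone (0.39, edgeR adjusted p = 0.0158). In the proximal tubule gate edgeR called 0 of 7 genes in cold (1 at an unadjusted p under 0.05, 0 by DESeq2; 21.3% of all genes) and 0 of 7 in warm preparations (1 and 0 likewise; 10.3%). With the replicate block 1 of 7 was called in each, Acaa2 in cold (0.32, edgeR adjusted p = 0.0096) and Ehhadh in warm (0.30, edgeR adjusted p = 0.0152). Ppara was at 12.6, 11.4 and 8.63 CPM fixed and 14, 13 and 6.39 fresh in the cold gate, and at 14.7, 21.3 and 18.9 against 25.1, 20.5 and 21.3 in the warm one.
Of all genes 14.5% were called higher and 13.6% lower in the cold sums, and 10.4% and 10.9% in the cold proximal tubule gate. In the cold sums 14 of 20 mitochondrial and 13 of 24 peroxisomal genes rose (medians 0.43 and 0.42 against -0.07 over all genes), with Etfa, which passes electrons from the acyl-CoA dehydrogenases, at 1.19 ± 0.12. Of the targets 4 rose and 2 fell of 18, and of the regulators 1 rose and 6 fell of 20. Inside the cold gate 5 of 19 and 2 of 23 rose, while 1 of 23 peroxisomal genes, 2 of 17 targets (1 rose) and 8 of 19 regulators fell. The leaked proximal tubule transcripts stood in the thick ascending limb at 19.5% to 35.7% of their proximal tubule level in fixed and 6.59% to 13.6% in fresh libraries. In endothelial cells of cold preparations Acaa2 was higher after fixing, at 186, 244 and 223 against 139, 144 and 101 CPM (0.75, edgeR adjusted p = 0.020, 1 of 2 genes tested against 25.6% of all genes).

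**Figure D4:**
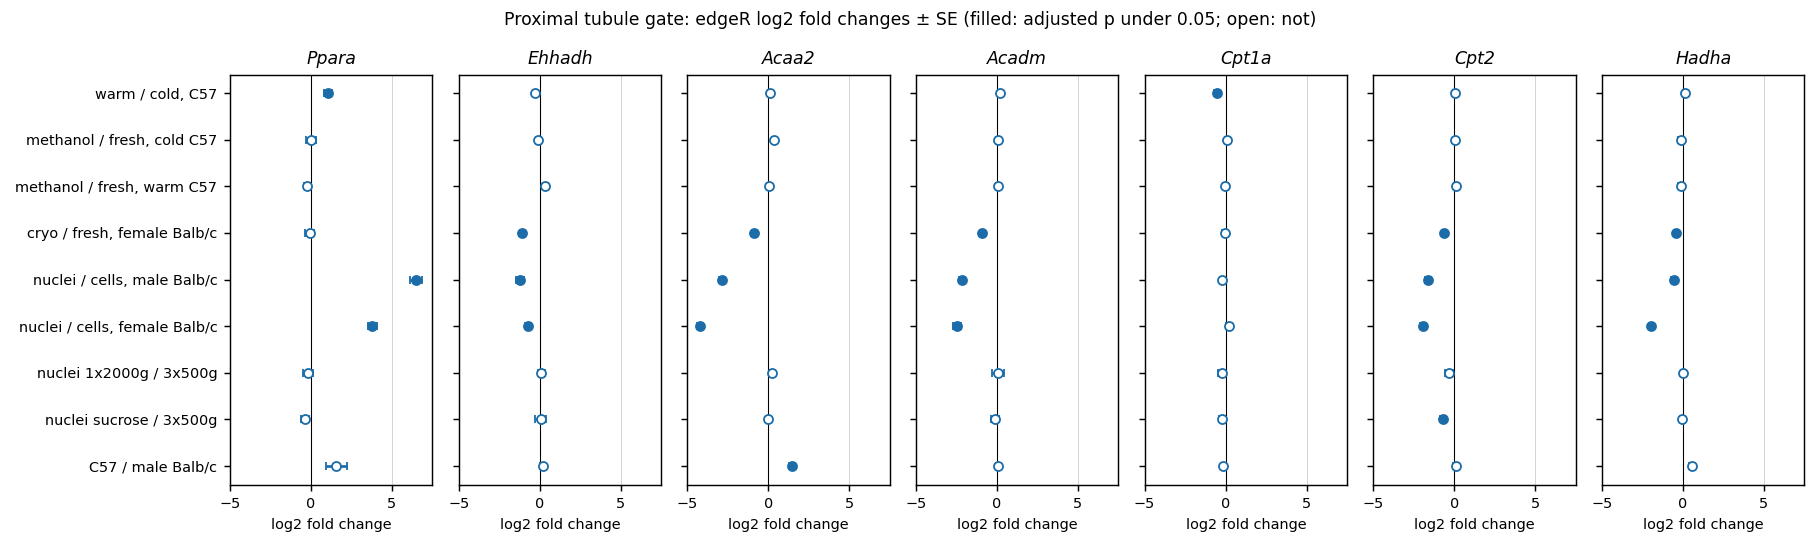
Log2 fold change ± SE of the 7 genes within the proximal tubule gate for 9 comparisons of protocol or strain; filled points had an adjusted p below 0.05. Among these comparisons only nuclei against cells moves a gene by more than 2 on the log2 scale, with Ppara at 6.50 and 3.79 (4.76 in males with the 0s of the gene filter at 9 counts) and Acaa2 at -2.87 and -4.23.

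Between nuclei and cells, Ppara was higher in nuclei and most of the enzymes were lower. Cells were counted over exons only and nuclei over introns and exons. Cells came from fresh tissue dissociated with protease, and nuclei from flash-frozen whole kidneys that were homogenized, with the nuclei then sorted. Nuclei also had to reach a minimum of UMIs. Counting rule, compartment, freezing, dissociation, sorting and this filter thus differ together, and their effects cannot be told apart. In male Balb/c sums 5 of 7 genes were called (81.3% of all genes), and in female sums 6 of 7 (84.8%). Ppara was at 376, 389 and 391 CPM in male nuclei against 0, 3.89 and 0 in cells, both 0s being libraries where the gene filter applied, and at 350, 615 and 668 in female nuclei against 25.4, 24.9 and 17.4 (4.13 ± 0.28).
Within the proximal tubule gate 6 of 7 genes were called in males (77.7% of all genes) and in females (85.4%). Ppara was at 490, 498 and 484 CPM in male nuclei and 0, 7.99 and 0 in cells (6.50 ± 0.36, on 8 UMIs in cells, and 4.76 ± 0.24 with the 0s of the gene filter at 9 counts, edgeR adjusted p = 1.8e-10), and at 517, 1002 and 1048 in female nuclei and 43.9, 36.1 and 26.6 in cells (3.79 ± 0.27). Acaa2 was at 34.3, 23.7 and 33.5 against 152, 172 and 186 CPM in males (-2.87 ± 0.17) and 62.8, 67.9 and 86.7 against 835, 771 and 756 in females (-4.23 ± 0.15).
Acadm was at 115, 140 and 206 CPM in male nuclei and 525, 513 and 525 in cells (-2.17 ± 0.18), and at 303, 159 and 143 against 641, 609 and 688 in females (-2.46 ± 0.26). None of these groups overlapped for Ppara, Acaa2 or Acadm, as for 82.1% of all genes in males and 89.4% in females. Cpt2 was lower in both (-1.61 ± 0.20 and -1.91 ± 0.19). Hadha was lower in males (-0.56 ± 0.18), at 42.6, 45.7 and 53.6 against 60.7, 50.9 and 44.4 CPM with overlap, and in females (-2.0 ± 0.11), at 72.6, 88.7 and 97.1 against 206, 191 and 200.
Cpt1a was not called in either sex, at 110, 109 and 126 against 118, 86.9 and 99.3 CPM in males (-0.20 ± 0.15) and 117, 184 and 210 against 86.6, 92.1 and 78.3 in females (0.19 ± 0.18). In females its libraries did not overlap, and on library size scaling alone it was called higher (0.98, edgeR adjusted p = 0.00047). Ehhadh was called lower in both, -1.23 ± 0.24 in males and -0.73 ± 0.17 in females, but in females its CPM values overlapped, at 267, 200 and 321 against 236, 276 and 245, and on library size scaling alone it stood at 0.06. The direction of Ehhadh and the call of Cpt1a in females thus depend on the scaling, which moved the median of all genes there from 0.17 to 0.97 and in the male gate from 0.85 to 1.26.
The sexes' nuclei gaps differed by a called amount for 3 of the 7 genes (44.3% of all genes were called in that test), Ppara (-2.73 ± 0.71, female minus male, edgeR adjusted p = 0.0049), Acaa2 (-1.39 ± 0.24) and Hadha (-1.46 ± 0.20). That of Ppara rests on the 2 male cell libraries listed at 0. With those at 9 counts it was -0.99 ± 0.49 and not called (edgeR adjusted p = 0.11), so that no difference between the sexes is shown for Ppara.

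Gene span moves with this comparison. Over 12105 tested genes with a span, the male gate's fold change had a Spearman rho of 0.49 with span, and over 12316 in the female gate 0.64, as descriptions across genes. In 5 equal groups of genes by rising span the medians were -0.69, 0.09, 0.52, 1.25 and 3.09 in males and -1.92, -0.78, -0.06, 0.84 and 2.18 in females. Ppara (67.8 kb) and Cpt1a (63.4 kb) fall in the fourth group in both, where Ppara lies above the median and Cpt1a below it. Ehhadh, Acaa2, Acadm and Cpt2 fall in the third group, and all 4 lie below its median in both sexes. The part of span in the differences was not tested.

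**Figure D5:**
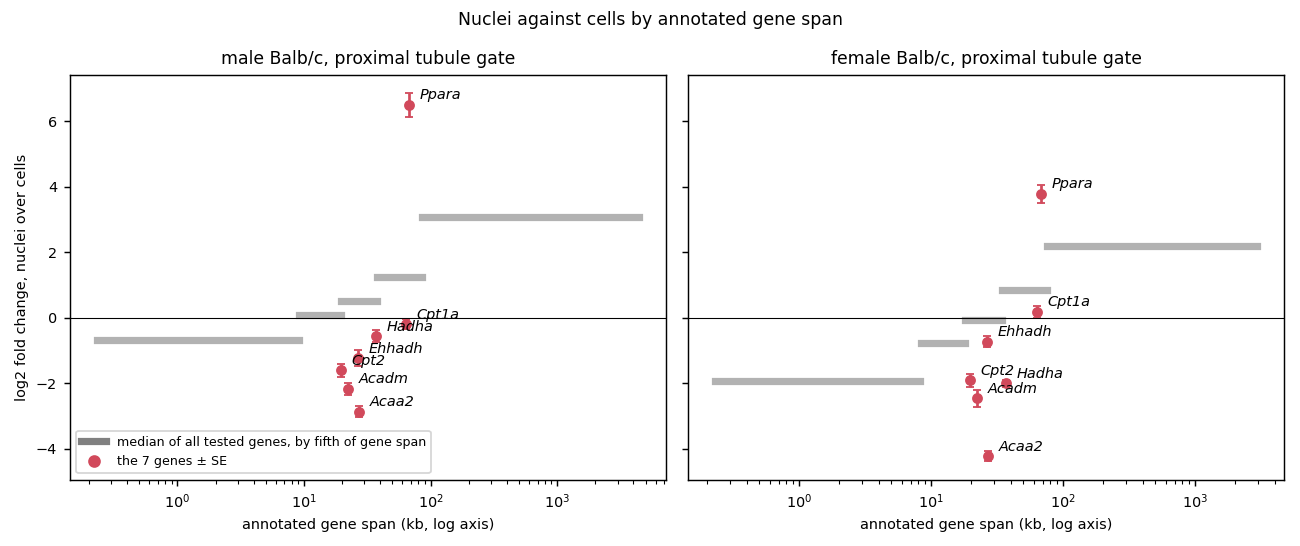
Log2 fold change of nuclei over cells in the proximal tubule gate of male and female Balb/c against annotated gene span (kb, log axis); grey bars are the medians of all tested genes in 5 equal groups by span and red points the 7 genes ± SE. Ppara lies above the median of its span group in both sexes, at 6.50 and 3.79 against 1.25 and 0.84, and the other 6 lie below theirs.

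The pathway lists are given beside the share of all genes, of which 52% were called higher and 25.7% lower in the male gate and 45.2% higher and 40.2% lower in the female gate. In the male gate 13 of 20 mitochondrial genes were lower and 3 higher (median -1.57 against 0.85 over all genes), 11 of 24 peroxisomal genes lower and 7 higher, and 15 of 20 regulators higher and 3 lower (median 1.19). In the female gate the counts were 13 lower and 2 higher of 18 (median -1.55 against 0.17), 15 and 4 of 24, and for regulators 2 lower and 16 higher of 21 (median 0.68). Of the PPARα targets 4 were higher and 7 lower of 16 in males (median -0.28), and 3 higher and 9 lower of 18 in females (median -0.65). Hadh (-3.39 ± 0.17 and -4.24 ± 0.12) and Ech1, a dienoyl-CoA isomerase (-2.87 ± 0.18 and -5.0 ± 0.19), were among the lowest, and Esrrg, an orphan nuclear receptor of mitochondrial genes (5.33 ± 0.21 and 6.61 ± 0.17), and in females Acacb (2.94 ± 0.30) among the highest. Etfb and Acad11 were listed at 0 in the 3 male nuclei libraries, against 938 and 54 CPM over the cells of the gate, and were called lower with the 0s at 9 counts as well (-9.61 ± 0.25 and -5.56 ± 0.28). With the 0s at 9 counts the male counts were 14 lower and 3 higher for the mitochondrial, 12 and 7 for the peroxisomal, 5 and 14 for the regulator and 10 and 2 of 18 for the target list (median of its 16 genes at -0.69).
In other gates of females the values went in the same directions, with transcripts leaked from the proximal tubule not separated out. In the thick ascending limb 6 of 7 genes were called (83.1% of all genes), with Ppara at 152, 140 and 145 CPM in nuclei against 11.9, 11 and 11.8 in cells (3.23), Acaa2 at -2.84 and Acadm at -2.40. Ppara was higher in nuclei of principal cells (2.82, 5 of 7 genes called against 80.6%), intercalated cells (2.41, 5 of 7 against 76.9%) and endothelium (4.04, 6 of 7 against 80%), and Acaa2 and Acadm were called lower in each of these gates. The Ppara values of cells in these gates rest on few UMIs. Over whole female libraries the leaked proximal tubule transcripts summed to 2481 to 3909 CPM in nuclei and 14021 to 15808 in cells. These sums include the RNA of the proximal tubule itself and do not measure leakage into other gates, whose part was not tested. In the thick ascending limb of males Ppara was at 84.6, 104 and 95.7 CPM in nuclei and at 0 in the 3 cell libraries, of which 2 list it at 0 over all cells, where 4 of 7 genes were called against 63.9%.

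The 3 ways of isolating female Balb/c nuclei gave few calls among these genes. The 1x2000g and sucrose nuclei were each compared with the same 3x500g libraries. For 1x2000g against 3x500g, edgeR called 0 of 7 genes in the sums (0 at an unadjusted p under 0.05 and 0 by DESeq2; 34.9% of all genes) and 0 of 7 in the proximal tubule gate (0 and 0 likewise; 23.8%). Ppara was at 294, 563 and 504 CPM in 1x2000g sums and 344, 603 and 656 in 3x500g, and replicate 1 was the lowest in both.
For sucrose against 3x500g, 2 of 7 genes were called in the sums (45.3% of all genes) and 1 of 7 in the proximal tubule gate (34.5%). Cpt2 was at 21.2, 23.5 and 23.0 CPM in sucrose sums against 24.5, 40.5 and 42.9 (-0.67 ± 0.18, edgeR adjusted p = 0.017), and Cpt1a at 133, 129 and 140 against 144, 182 and 205 (-0.41 ± 0.11, edgeR adjusted p = 0.022). In the gate Cpt2 was at 26.8, 30.0 and 29.9 against 29.8, 54.5 and 55.7 CPM (-0.69 ± 0.20, edgeR adjusted p = 0.029), with 1 of the 3x500g libraries at the sucrose level. These calls were small and fragile. In the sums that of Cpt1a was lost without sucrose replicate 1 (-0.41, adjusted p = 0.0634) or 2 (-0.38, adjusted p = 0.0729). That of Cpt2 was lost without 3x500g replicate 2 (-0.62, adjusted p = 0.0524) or 3 (-0.51, adjusted p = 0.056) or sucrose replicate 1 (-0.64, adjusted p = 0.0627) or 3 (-0.68, adjusted p = 0.0506). In the gate that of Cpt2 was lost without 3x500g replicate 2 (-0.60, adjusted p = 0.0791) or 3 (-0.52, adjusted p = 0.0987) or sucrose replicate 1 (-0.65, adjusted p = 0.0955), 2 (-0.71, adjusted p = 0.0697) or 3 (-0.71, adjusted p = 0.0689). Ehhadh was high in 1 sucrose library, at 127, 314 and 118 CPM against 179, 126 and 202, and Acadm in 1 of the 3x500g libraries, at 228, 128 and 117 against 132, 168 and 139 in sucrose.
More of the surrounding regulators fell: 14 of 21 in sucrose against 3x500g sums, with Esrrg (-0.74 ± 0.09) and Ppargc1a (-0.59 ± 0.08), against 2 that rose, where 21.4% of all genes were called lower and 23.9% higher. In the proximal tubule gate 9 of 21 fell and 2 rose. The summed markers of the thick ascending limb were at 4119 to 5045 CPM in sucrose and 6480 to 6957 in 3x500g sums and those of endothelium at 774 to 814 against 392 to 566, and their part in the sums was not tested. In the endothelial gate 4 of 7 genes were called for 1x2000g (20% of all genes), Ppara lower (-1.02) and Acaa2 (1.00), Acadm (0.89) and Cpt2 (1.02) higher, and 2 of 7 for sucrose (18.5%), Ppara (-0.80) and Cpt1a (-0.52), both lower. In the thick ascending limb Ppara was lower in 1x2000g at 119, 112 and 107 against 149, 137 and 143 CPM (-0.32, 1 of 7 against 27.9%), and Cpt1a (-0.46) and Cpt2 (-0.76) were lower in sucrose (2 of 7 against 40.9%). The leaked transcripts stood there at 33.3% to 42.8% of their proximal tubule level in 1x2000g, 18.2% to 20.1% in sucrose and 7.82% to 10.9% in 3x500g nuclei, and their part was not tested.

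C57BL/6J and male Balb/c were both profiled as fresh cold-dissociated cells, and of the 7 genes Acaa2 was called in the proximal tubule gate and in the sums. Strain, the AFAPIL.1DEL genotype, age and batch cannot be told apart in this comparison. In the proximal tubule gate Acaa2 was at 428, 357 and 482 CPM in C57BL/6J and 152, 172 and 186 in male Balb/c (1.44 ± 0.16, edgeR adjusted p = 4e-06), the only gene of 7 called, against 10.5% of all genes. Within the gate, S1 took 16.5% to 21.1% of all barcodes in C57BL/6J and 9.20% to 11.4% in male Balb/c. S3 took 3.16% to 5.39% and 6.09% to 6.73%, and the part of this make-up was not tested. Ppara was at 14, 13 and 6.39 against 0, 7.99 and 0 CPM (1.56 ± 0.65, edgeR adjusted p = 0.15, on 84 and 8 UMIs), with overlap, and at -0.20 ± 0.42 with the 0s of the gene filter at 9 counts. Hadha was at 69.5, 67.6 and 73.9 against 60.7, 50.9 and 44.4 CPM without overlap or a call (0.54 ± 0.19, edgeR adjusted p = 0.080).
Ehhadh, Acadm, Cpt1a and Cpt2 lay between -0.13 and 0.20 on the log2 scale in the gate, with overlapping libraries. In the sums 2 of 7 genes were called (14.2% of all genes), Acaa2 (1.07 ± 0.15, edgeR adjusted p = 0.0042) and Ehhadh. Ehhadh was at 154, 117 and 156 against 104, 94.9 and 123 CPM (0.61 ± 0.15, edgeR adjusted p = 0.035), a call lost without male Balb/c replicate 1 (0.59, adjusted p = 0.0827) or 2 (0.57, adjusted p = 0.0949) or C57BL/6J replicate 1 (0.55, adjusted p = 0.108) or 3 (0.52, adjusted p = 0.113). The proximal tubule gate took 40.2% to 44.0% of barcodes in C57BL/6J and 25.4% to 32.0% in male Balb/c. Its markers summed to 3759 to 4319 against 2443 to 3215 CPM, and the part of this in the sums was not tested. Library medians were 1192 to 1525 UMIs per barcode in C57BL/6J, mitochondrially encoded genes included, and 343 to 688 in male Balb/c, which lists none of those genes. Gate shares, those of S1 and S3 included, can move with this depth. Among PPARα targets in the gate 7 of 15 tested were higher in C57BL/6J and 2 lower, where 6.2% of all genes were called higher and 4.33% lower. Cyp4a14 was listed at 0 in the 3 male Balb/c libraries, against 33.5 CPM over the C57BL/6J cells of the gate, and with the 0s at 9 counts its call was lost (1.33 ± 0.63, edgeR adjusted p = 0.21). Cyp4a31 (4.41 ± 0.41, and 2.67 ± 0.27 with the 0s at 9 counts) and Plin2 (2.67 ± 0.24) were higher, and Cyp4a12a (-2.58 ± 0.18) and Cd36 (-1.48 ± 0.15) lower. Of the peroxisomal list 5 of 23 were higher, with the thiolase Acaa1b (1.16 ± 0.15) and the CoA hydrolase Nudt7 (2.18 ± 0.44, a call lost with 1 male Balb/c library's 0 at 9 counts, 1.15 ± 0.40, edgeR adjusted p = 0.076), and Acox2 was lower (-0.95 ± 0.22). Of the mitochondrial list 1 of 19 was higher and 0 lower, and of the regulators 0 were higher and 1 lower of 18.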

How the data were processed

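The deposited files held UMI counts per gene and barcode for the droplet libraries and read counts per gene for the bulk libraries, not normalized by the authors. The authors processed droplet reads with Cell Ranger 2.1.1 against mm10, counting reads in exons for cells but also those in introns for nuclei, kept barcodes with at least 200 genes and genes found in at least 10 cells of a library (per library 0 to 852 listed genes stood in 1 to 9 barcodes), and aligned bulk reads with STAR 2.6.1a. A strand setting was not given in the sources used here.

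Barcodes were placed in 10 gates by marker genes (at least 2 detected, ties left out as possible doublets; no doublet caller was run), and UMIs were summed per library and gate where a library had at least 10 cells. CPM were taken over genes other than mitochondrially encoded ones that were listed in all compared libraries. Groups of 3 were compared with edgeR 4.0.16 (R 4.3.3; filterByExpr, TMM, quasi-likelihood test, Benjamini-Hochberg adjustment over all genes tested, threshold 0.05), and segments within libraries with the library as a block. Fits were tested on simulated data. Alternatives were DESeq2 1.42.0, other scalings and filters, stricter gates and leaving out each library. Library size scaling alone, the replicate block, 0s of the gene filter set to 9 counts, tests of differences between effects and gene span were added after seeing the data. The members and the 4 pathway lists were chosen with earlier results of these data known. In each comparison the calls of the 7 members were counted where they could be tested, and values are printed for some of them only. The text also draws on up to 3 called genes in each direction and list, and on 3 genes of like profile per member. Beyond that rule, Ppargc1a in bulk was named after its values were seen. GEO's labels carry no replicate numbers. The headers carry suspension codes, and stored samples are aliquots of the fresh suspensions. Deviations from group means correlated above 0.1 within every code for methanol against fresh cells (0.40, 0.50 and 0.56 in cold sums), so blocked values are given there. For cryopreserved and for warm against cold samples they did not. Promoters came from RefSeq (GRCm38.p6) and no Acaa2 sequence is shown. Some list genes are not reported here by name.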

Additional observations from a re-analysis of the deposited data

Results flagged for a closer look

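The results below are listed because an effect differed between sexes, strains or sets by edgeR's test of the difference itself, with Benjamini-Hochberg adjustment. The share of all genes called in the same test is given beside them. Strain, genotype, sex, age, chemistry and batch cannot be told apart in them.

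In the proximal tubule gate, the difference between 3x500g nuclei and cells was lower in female than in male Balb/c for Ppara by -2.73 ± 0.71 on the log2 scale (adjusted p = 0.0049). The male cells held only 8 Ppara UMIs, and 2 of their 3 libraries list Ppara at 0, which the authors' minimum of 10 cells per gene can give. With those 0s at 9 counts the value was -0.99 ± 0.49 and not called (adjusted p = 0.11). For Acaa2 the female minus male value was -1.39 ± 0.24 (edgeR adjusted p = 0.00014), and for Hadha it was -1.46 ± 0.20 (edgeR adjusted p = 2.1e-05). In this test 3 of the 7 genes were called against 44.3% of all genes, about the same share.

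The S3 minus S1 difference of Acaa2 was 2.35 ± 0.31 less negative in female than in male Balb/c cells (edgeR adjusted p = 1.2e-05). Of the genes tested 1 of 6 was called there, against 2.62% of all genes. The S3 and S1 gates took unlike shares of barcodes in these sets, as given above. The thick ascending limb minus proximal tubule difference of Acaa2 was lower than in male Balb/c by -1.25 ± 0.24 in C57BL/6J (edgeR adjusted p = 0.0022). In female Balb/c cells it was lower by -1.69 ± 0.19 (edgeR adjusted p = 5e-06). The called genes were 1 of 6 against 0.599% of all genes for C57BL/6J, and 1 of 7 against 1.97% for female Balb/c.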

How the results depend on the processing

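Of 1180 alternative values of called genes, 1087 kept their direction and call, 91 lost the call and 2 changed sign. Those 2 were Ehhadh in female nuclei against proximal tubule cells on library size scaling (0.059, main -0.73) and Acadm in the thick ascending limb of female nuclei with barcodes that carry no marker of another gate (0.25, main -0.93). Of 1195 values of genes not called, 40 gained a call and 112 changed sign, of which 1 was called, Cpt1a in male nuclei sums by DESeq2 (-0.31). Counts of the 7 genes called moved as follows, with the main count in brackets. Library size scaling gave 1 [2] for warm against cold sums, 0 [2] for methanol cold sums, 1 [2] for C57BL/6J against male Balb/c sums and 3 [5] for the female cryopreserved proximal tubule gate. It moved the median of all genes in female nuclei against cells from 0.17 to 0.97 in that gate and from 0.10 to 0.54 in sums. It also turned the higher to lower split of calls in the thick ascending limb from 1 and 5 to 2 and 4 in C57BL/6J and from 2 and 3 to 3 and 2 in male Balb/c cells, and in the female nuclei gate from 1 and 5 to 2 and 4. Barcodes with no marker of another gate gave 0 [2] for warm against cold and 0 [1] for sucrose nuclei in the proximal tubule, and 3 [6], 3 [5] and 3 [6] in the thick ascending limb of C57BL/6J cells, male Balb/c cells and male nuclei. DESeq2 gave 3 [0] for methanol warm sums, 2 [5] for the male Balb/c thick ascending limb and 2 [5] for S3 in male nuclei. In bulk, keeping all genes gave 1 [0] for warm against cold, and requiring a log2 change of 2 gave 0 [4] for intact kidney. The replicate block gave 3 [2] for methanol cold sums, 1 [0] for warm sums, and 1 [0] in both proximal tubule comparisons with methanol, and it changed no other count by over 1.5 times.

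Leaving out 1 library at a time gave 1 to 2 calls for warm against cold sums, 0 to 2 for methanol cold and 0 to 1 for methanol warm sums, 0 to 3 for sucrose nuclei in sums and in the proximal tubule, 1 to 2 for C57BL/6J against male Balb/c in both, 0 to 2 for warm against cold and 0 to 1 for both methanol comparisons in the proximal tubule, 3 to 4 for bulk intact kidney, 2 to 5 for the thick ascending limb of male Balb/c cells, 3 to 4 for S3 in female cells and 3 to 6 for S3 in male nuclei. The causes were not tested. Setting the 0s that the authors' gene filter can give to 9 counts ended the call of Ppara in cold cryopreserved sums (-0.89). Keeping mitochondrially encoded genes could not be run in 5 comparisons with none listed in common, and no alternatives were run in gates other than the proximal tubule, its S3 and S1 subgates and the thick ascending limb compared with it. Ppara in cells and S3 gates of 20 to 77 cells in females rest on few UMIs.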

Other observations

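Over the 10 gate means of fresh cold-dissociated cells, the genes closest in profile to the others, by Pearson r among 11491 genes, were Tmem169 (0.96), Gpd1 (0.95) and Rdh16 (0.95) for Ppara, Aldh5a1 (0.96), Zdhhc5 (0.95) and Ogfod2 (0.95) for Acaa2, and BC034090 (0.97), Echdc3 (0.96) and Tex2 (0.96) for Cpt1a. For Cpt2 they were Hus1 (0.96), Zbtb43 (0.95) and Ube4a (0.95), and for Hadha Twsg1 (0.98), Dcun1d1 (0.97) and Ago1 (0.96). These are descriptions over 10 points that share libraries.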
